A study of Mus musculus with 20 samples.

Results

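The ETS motif footprints are the rows of a footprint table whose motif is named for a factor of the ETS family. They were found by name, as every motif whose name starts with ETS, ETV, ELK, ELF, ERG, FLI1, GABPA, SPI1, SPIB, SPIC, EHF, ERF, FEV or SPDEF, with the unrelated plant factors called ERF left out. This gave 78 of the 1205 motifs. Of these, 58 describe an ETS factor alone and 20 an ETS factor paired with a second factor, written with 2 colons (ERF::FIGLA). Several are versions of 1 motif: the 78 motifs carry 47 names and fall into 26 of the table's similarity clusters, so they are not independent. Matrix identifiers (MA0645.1) are given where versions of a name differ.

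The footprints came from ATAC-seq, in which a transposase inserts sequencing adapters into open chromatin and a bound factor leaves a dip in the insertions. WT mice were Nkx2.1-Cre;Ai3, and Tcf4 cKO mice were Tcf4 f/f;Nkx2.1-Cre;Ai3, so that Cre driven by Nkx2.1 sequence both removed Tcf4, in the cKO alone, and switched on the fluorescent reporter Ai3 in progenitors of the ventral telencephalon and their progeny. Sorted GFP-positive cells of the postnatal neocortex (day 7 in the header of the footprint table) gave 2 ATAC-seq libraries per genotype and, by Cut&Tag, 2 libraries per genotype for each of H3K4me1, H3K27ac and H3K27me3, and a Tcf4-tag line, in which endogenous Tcf4 carries a Flag tag after Cre, gave 2 anti-Flag libraries.

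ETS factors share a winged helix-turn-helix domain that reads a GGAA or GGAT core, and the bases before the core set 4 classes. The motifs were grouped here by name. Class I holds the ETS, ERG, ETV and ELK factors, ERF and GABPA, class II the ELF factors and EHF, class III SPI1 and its relatives, and class IV SPDEF. ETV6 and ETV7 were thus counted with the other ETV factors, whatever their own sequence preference. Many ETS factors are targets of ERK signalling, GABPA acts at promoters of housekeeping and mitochondrial genes, SPI1 directs microglia and other myeloid cells, and ERG and FLI1 direct endothelial cells. Tcf4 belongs to a different family, the basic helix-loop-helix factors that bind E-boxes such as CAGCTG.

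The sites behind the footprints were not used here, so ETS words of fixed letters were searched on both strands of GRCm38 (mm10). The words overlap, since the first stands inside the next 2, and are shown because each stands for a class.
core: CCGGAAGT
class I: ACCGGAAGT
class II: CCCGGAAGT
class III: GAGGAAGT
class IV: CCGGATGT
Of 32544 RefSeq promoters of GRCm38.p6, each 300 bases long, 1276 (3.92%) held the core word, 359 the class I word, 1.24% the class II word, 3.11% the class III word and 0.599% the class IV word.

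The core word stands in capitals here within 56 bases of 7 consensus regions, the ATAC-seq regions that the authors merged over libraries. They are the regions with the word near the centre whose accessibility differed most between genotypes, the most accessible promoters and a known GABPA target. Each is read 5′ to 3′ on the strand named with it. The gene and the place, promoter or intergenic, are those of the authors' annotation.
Gm26744, intergenic, chr16:21854714-21854769, plus strand: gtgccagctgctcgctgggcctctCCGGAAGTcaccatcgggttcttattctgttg
Bcas1, promoter, chr2:170406543-170406598, plus strand: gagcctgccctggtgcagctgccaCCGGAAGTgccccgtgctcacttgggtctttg
Ndrg1, intergenic, chr15:67039520-67039575, plus strand: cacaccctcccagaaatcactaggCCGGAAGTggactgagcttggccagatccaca
Sall1, intergenic, chr8:89073268-89073323, plus strand: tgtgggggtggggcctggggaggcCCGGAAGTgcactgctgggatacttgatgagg
Ube2n, promoter, chr10:95515097-95515152, plus strand: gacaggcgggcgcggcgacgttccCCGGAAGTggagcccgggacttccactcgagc
Ddx50, promoter, chr10:62651200-62651255, minus strand: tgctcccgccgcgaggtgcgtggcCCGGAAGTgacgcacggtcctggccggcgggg
Tfam, promoter, chr10:71238060-71238115, minus strand: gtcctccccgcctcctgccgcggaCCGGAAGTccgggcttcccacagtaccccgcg
The base before the word makes it a class I word at Bcas1 and Tfam and a class II word at Sall1, Ube2n and Ddx50. The stretches at Gm26744 and Bcas1, the regions with the largest loss of accessibility in Tcf4 cKO, each hold 1 E-box CAGCTG, and the other 5 hold none.

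All 78 ETS motifs had a lower mean footprint score in Tcf4 cKO than in WT, against 53.4% of the 1205 motifs of the table. The footprint score measures how deep the dip in insertions is and how open its flanks are, averaged over every site of a motif in the open regions. The differences were small. The change in score ran from -4.50% to -0.186% with a median of -2.72%, which is a median log2 ratio of -0.040, against a median of -0.0028 over all motifs. No ETS motif had a WT score more than 5% above the Tcf4 cKO score, where 6.97% of all motifs did. With a margin of 2% in place of 5%, 57 of the 78 were lower in Tcf4 cKO and none was higher, against 24.2% of all motifs lower. The scores came from 1 merged alignment per genotype, so there is no spread between libraries and no test of any of these differences. In such bulk samples, a change in the share of a cell type and a change of chromatin within each cell cannot be told apart.

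The classes overlapped in their log2 ratios. The 34 class I motifs of a factor alone had a median log2 ratio of -0.052, the 14 class II motifs -0.040, the 9 class III motifs -0.027 and the single class IV motif, SPDEF, -0.043. The 20 paired motifs had a median of -0.033. Of the 3 families set beside them, the 24 motifs of class A E-boxes, the kind that Tcf4 binds, were all lower with a median of -0.088, and 16 of them were past the margin of 5%. The 47 KLF, SP and EGR motifs, which stand for GC-rich words common in promoters, went the other way: 45 were higher in Tcf4 cKO, with a median of 0.017 and 2 past the margin of 2%. The 10 NFI motifs were mixed, 6 lower and 4 higher. The plot by class shows these distributions.

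**Figure D1:**
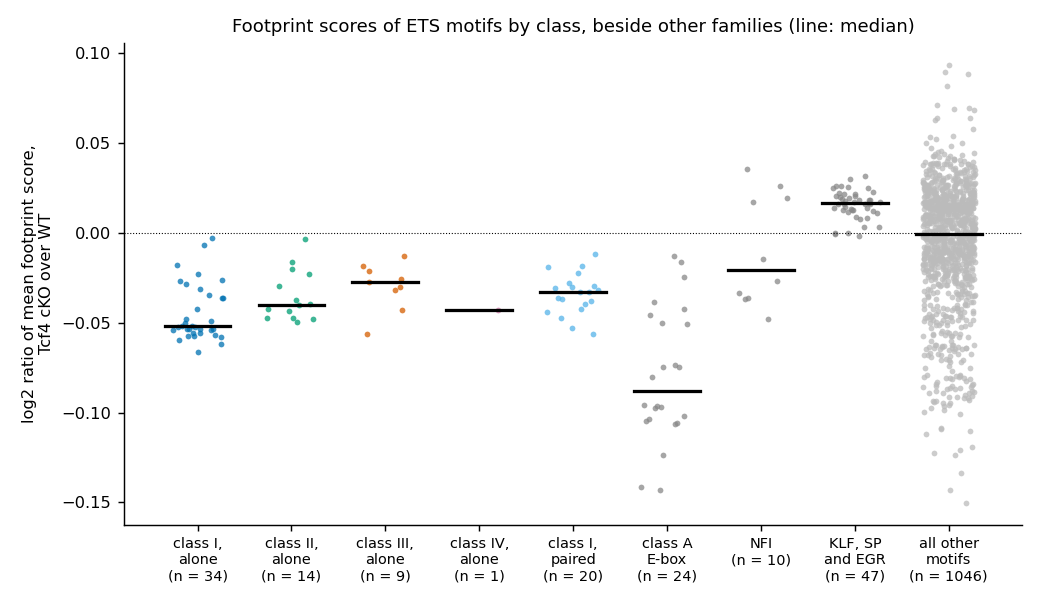
Log2 ratio of the mean footprint score, Tcf4 cKO over WT, for each motif (point) with the median of each group (line), from 1 merged alignment per genotype. All 78 ETS motifs lie below 0, and their median of -0.040 lies between the medians of the class A E-box motifs (-0.088), whose range overlaps theirs, and of the KLF, SP and EGR motifs (0.017).

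Among the factors counted by name in class I, the 4 motifs of ERF, ETV3, ETV6 and ETV7, known mainly as repressors, had the lowest median log2 ratio, -0.061. ETV6 (MA0645.1) had the lowest ratio of all ETS motifs: over 17604 sites its mean score was 0.513 in WT and 0.490 in Tcf4 cKO, a log2 ratio of -0.066. ETV3 followed, with 0.611 in WT and 0.585 in Tcf4 cKO and a log2 ratio of -0.062, and then ERF, with 0.538 and 0.516 and a log2 ratio of -0.060. Next came ETV5 (MA0765.2), at 0.536 and 0.515 with a log2 ratio of -0.058. These 4 motifs ranked between 95 and 121 from the bottom of all 1205 motifs.

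ETV1, ETV4 and ETV5, the PEA3 group that responds to FGF and ERK signals, had 8 motifs with log2 ratios from -0.058 to -0.0066. The versions of ETV5 show how much the matrix matters. MA0765.1, with 7974 sites, scored 0.794 in WT and 0.764 in Tcf4 cKO, and MA0765.3, with 9335 sites, scored 0.756 and 0.728, so their levels differ by more than the genotypes do. ETV4 spans the same range, from MA0764.1, with a log2 ratio of -0.057 over 9112 sites, to MA0764.2, with -0.0066 over 54782 sites.

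The 6 motifs of ELK1, ELK3 and ELK4, factors that join SRF at serum response elements, had scores of 0.598 to 0.832 in WT and log2 ratios from -0.057 to -0.035. ELK3 (MA0759.2) had the highest score of the 78 motifs, and rank 4 of all 1205, with 0.832 in WT and 0.803 in Tcf4 cKO. GABPA had 3 matrices with log2 ratios of -0.049, -0.031 and -0.026. The matrix of the highest GABPA score, MA0062.2, scored 0.700 in WT and 0.676 in Tcf4 cKO over 15174 sites, of which 39.7% and 39.4% were called bound.

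ETS1 and ETS2 had 4 motifs with log2 ratios from -0.052 to -0.0027. ETS1 itself spans the whole of that range. MA0098.3 scored 0.534 in WT and 0.515 in Tcf4 cKO, a log2 ratio of -0.052, while MA0098.1, the motif of the family that differed least, scored 0.474 and 0.473. The 9 motifs of ERG, FLI1, FEV and ETV2, factors of endothelial cells and, for FEV, of serotonergic neurons, ran from -0.057 (ERG, MA0474.2) to -0.018 (MA0474.1 of the same factor).

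In class II, the 6 motifs of the broadly expressed ELF1, ELF2 and ELF4 had log2 ratios from -0.047 to -0.023, and the 8 motifs of the epithelial factors ELF3, ELF5 and EHF from -0.050 to -0.0032. ELF1 scored 0.564 in WT and 0.548 in Tcf4 cKO with MA0473.2, a log2 ratio of -0.042. EHF (MA0598.1) was among the 4 motifs that differed least, with 0.2733 in WT and 0.2727 in Tcf4 cKO.

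In class III, the 9 motifs of SPI1, SPIB and SPIC had log2 ratios from -0.056 to -0.013 and the lowest median score of the 4 classes, 0.258 in WT. SPI1 (MA0080.5) had the most sites of all ETS motifs, 66721, with a score of 0.232 in WT and 0.228 in Tcf4 cKO and 8.10% and 8.08% of sites called bound. Spi1 (MA0080.6) followed with 62792 sites and scores of 0.258 and 0.255. A further SPI1 matrix, MA0080.1, stood far higher, with 0.648 in WT and 0.635 in Tcf4 cKO and 36.7% of sites bound in both. SPDEF, the only class IV factor, scored 0.513 in WT and 0.498 in Tcf4 cKO over 7740 sites, the second fewest, and its share of bound sites was 26.9% in both genotypes.

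The 20 paired motifs were all of class I factors. With basic helix-loop-helix partners (FIGLA, NHLH1 and SREBF2) 6 motifs had a median log2 ratio of -0.041, with homeodomain partners 8 had a median of -0.035, and with forkhead partners 6 had a median of -0.030. ERF::SREBF2 had the fewest sites of all ETS motifs, 7493, and scored 0.366 in WT and 0.352 in Tcf4 cKO, a log2 ratio of -0.056. ERF::FOXO1 was the paired motif that differed least, with 0.257 and 0.255.

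Motifs with a high score differed more than motifs with a low one. Of the 58 motifs of a factor alone, the 27 with a WT score of at least 0.5 had a median log2 ratio of -0.052 and a median of 10110 sites, and 26 of them were lower by the margin of 2%. The 31 with a WT score under 0.5 had a median log2 ratio of -0.030 and a median of 39151 sites, and 16 of them were past that margin. Across the 78 motifs the log2 ratio had a Spearman correlation of -0.69 with the WT score and of 0.66 with the number of sites. The correlation between score and sites was -0.66, so score and site number cannot be told apart, and the motifs share sites and alignments. Across all 1205 motifs the correlation of log2 ratio and WT score was -0.14. Plotted against the WT score, the ETS motifs form a band below 0.

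**Figure D2:**
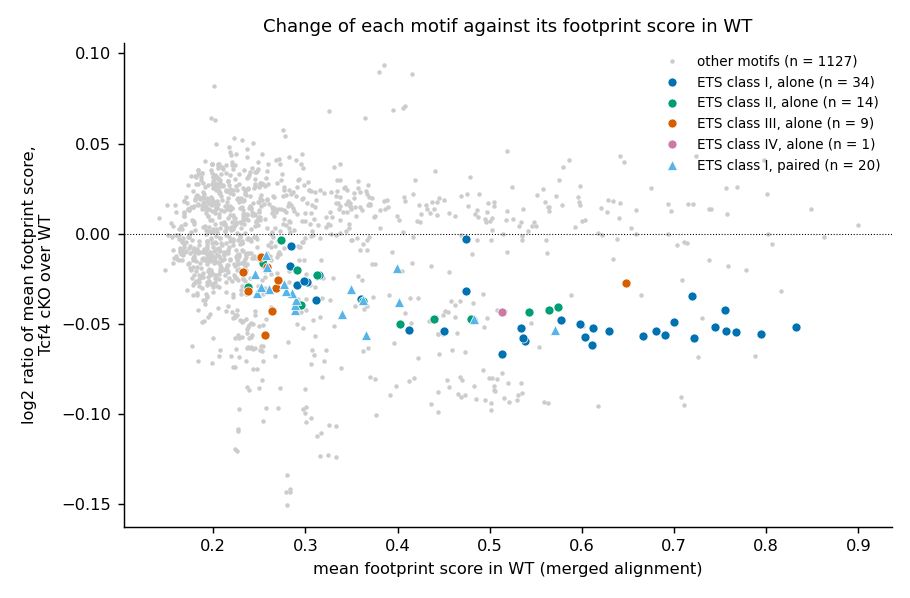
Log2 ratio of the mean footprint score, Tcf4 cKO over WT, against the mean footprint score in WT, for the 78 ETS motifs by class and for the 1127 other motifs (grey). The 27 motifs of a factor alone with a WT score of at least 0.5 have a median of -0.052, and the 31 under 0.5 a median of -0.030.

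The count of bound sites went the same way but less far. A site is called bound where its score passes a cutoff that the authors' software set. Fewer sites were called bound in Tcf4 cKO for 69 of the 78 motifs, against 48.3% of all motifs. The median share of bound sites was 18.7% in WT and 18.4% in Tcf4 cKO, and the difference ran from -0.504 to 0.225 percentage points. All 14 class II motifs had fewer bound sites, while 3 of the 9 class III motifs and SPDEF had more. ETV6 (MA0645.1) had 4676 bound sites in WT and 4615 in Tcf4 cKO, and ELK3 (MA0759.2) had 4531 and 4514.

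Peak lists of the single libraries give a second measure with replicates. In each ATAC-seq library the summits of the 20000 peaks of lowest q-value were searched for a word within 75 bp. The core ETS word lay at 3.57% and 3.56% of summits in WT replicates 1 and 2, and at 3.37% and 3.26% in Tcf4 cKO replicates 1 and 2. Both Tcf4 cKO libraries were below both WT libraries. The WT mean was 3.57% with an SD of 0.0071 and the Tcf4 cKO mean 3.32% with an SD of 0.078, so they lay -0.250 percentage points apart, with p = 0.33 in a two-sided exact permutation test over libraries. This is the smallest p that 2 libraries against 2 allow, so no difference between these groups can pass 0.05, with or without adjustment for the several words and marks compared. With all peaks in place of the first 20000 the libraries held 1.46% and 1.15% in WT and 1.25% and 1.26% in Tcf4 cKO, the difference was -0.052 points and the groups overlapped. Peak numbers, 54159 and 72306 in WT and 61650 and 58581 in Tcf4 cKO, differ in that setting. The source of each library's cells in separate animals was not given in the sources used here, and the spread may be technical.

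The class I, II and IV words showed the same order of libraries, and the class III word did not. Other settings moved this: the class I groups overlapped with windows of 25 and 150 bp and with all peaks, the class II groups with 150 bp and with all peaks, and with all peaks the class III word was lower in both Tcf4 cKO libraries, while the class IV groups stayed apart in each of these settings. The class I word lay at 0.980% of summits in both WT libraries and at 0.915% and 0.870% in Tcf4 cKO. The class IV word lay at 0.490% in both WT libraries and at 0.435% and 0.430% in Tcf4 cKO. The class II word lay at 1.105 ± 0.0071% of summits in WT and 1.075 ± 0.028% in Tcf4 cKO (n = 2, SD), a difference of -0.030 points, and its groups did not overlap. The class III word lay at 0.990% and 1.09% in WT, with a mean of 1.04% against 1.048% in Tcf4 cKO, and its groups overlapped. For comparison, the E-box word lay at 13.9% and 14.4% of summits in WT and 11.8% and 11.9% in Tcf4 cKO, and the SP word GGGCGG, whose groups overlapped, at 38.1% and 36.9% in WT and 38.4% and 37.3% in Tcf4 cKO.

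Peaks that overlapped a consensus region annotated by the authors as a promoter are here called promoter peaks, and all others count as outside promoters. Promoter peaks made up 58.5% and 57.2% of the 20000 in WT and 58.1% and 57.2% in Tcf4 cKO, and these groups overlapped. Within promoter peaks the core word lay at 5.55% of summits in both WT libraries and at 5.22% and 5.18% in Tcf4 cKO, a difference of -0.352 points (p = 0.33, two-sided exact permutation test). Outside promoters it lay at 0.782% and 0.899% in WT and 0.799% and 0.701% in Tcf4 cKO, and the groups overlapped. At promoter peaks the class II word no longer separated the genotypes, with 1.69% and 1.74% in WT and 1.70% and 1.68% in Tcf4 cKO. The plot of shares by library sets these values side by side.

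**Figure D3:**
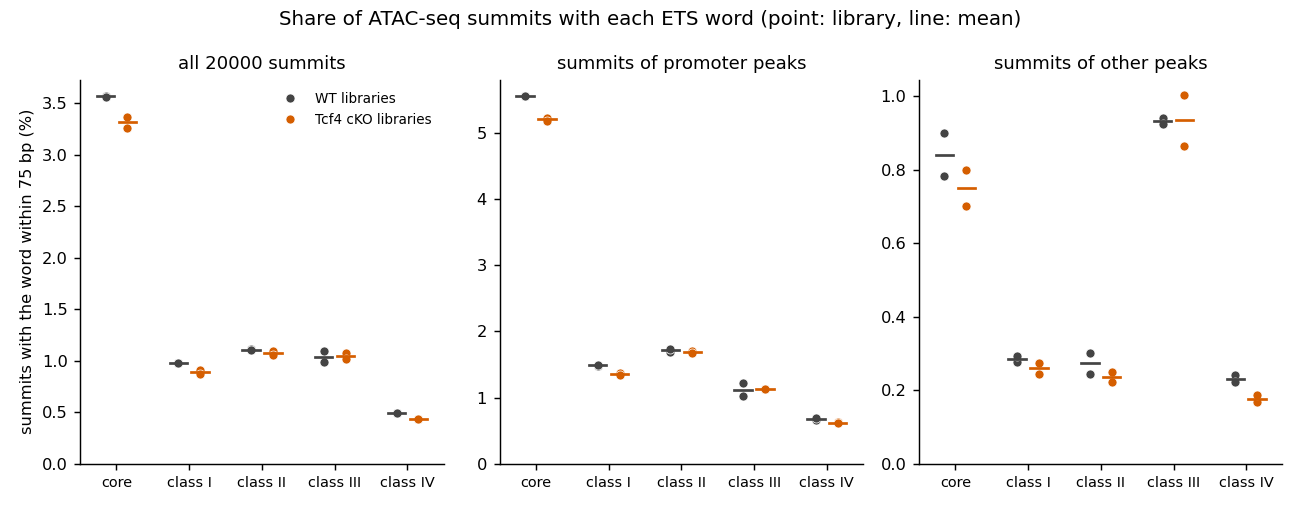
Percent of ATAC-seq summits with each ETS word within 75 bp, for the 20000 peaks of lowest q-value of each library, for those over promoters and for the others, each panel on its own axis from 0. Points are libraries and lines are means of 2, and both Tcf4 cKO libraries lie below both WT libraries for the core word among all summits and at promoters.

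The core word was gathered at the summits in all 4 libraries. In the 3 bins of 25 bp at the summit it occurred 8.17 and 8.02 times per 1000 summits in WT and 7.83 and 7.82 times in Tcf4 cKO. In the bins at least 400 bp away it occurred 0.635 and 0.685 times in WT and 0.635 and 0.615 times in Tcf4 cKO, so the centre was 11.7 to 12.9 times as dense as the edge. The class III word was nearly as frequent at the edge as at the centre, with a ratio of 1.19 to 1.47, against 1.73 to 2.24 for the E-box word. At the centre the Tcf4 cKO libraries were again below the WT libraries for the core word, while at the edge the groups overlapped.

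**Figure D4:**
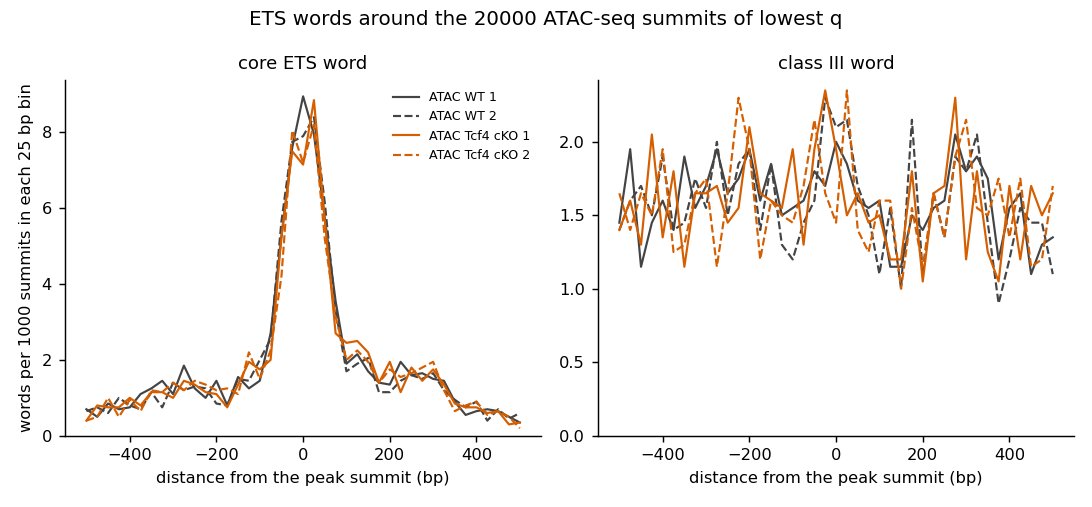
Number of ETS words per 1000 summits in bins of 25 bp around the 20000 ATAC-seq summits of lowest q-value of each library (lines), for the core word and the class III word, with different axes. The core word peaks at the summit in all 4 libraries, 11.7 to 12.9 times as dense as in bins at least 400 bp away, and the class III word stays near its edge level.

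Consensus regions give the accessibility at these words. Of the 32120 regions, 376 held the core word within 75 bp of the centre, and 89.1% of these were promoters, against 43.3% of all regions. The median distance from the word to the nearest start site was 27.5 bp, and 72.3% of the words lay within 100 bp of one. The class III word was different in place: 307 regions held it, 36.2% of them were promoters, and its median distance to a start site was 5535 bp. The class IV word, in 84 regions, stood between them, with 70.2% in promoters and a median distance of 147.5 bp.

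Promoter regions with the core word had higher peaks than other promoters in every library. The median fold enrichment of the strongest peak over local background was 10.5 with the word and 8.44 without it in WT replicate 1, and 10.6 and 8.64 in WT replicate 2. In Tcf4 cKO it was 9.75 with the word and 8.18 without it in replicate 1, and 9.84 and 8.04 in replicate 2. The ratio of promoters with and without the word was 1.24 and 1.22 in WT and 1.19 and 1.22 in Tcf4 cKO. The groups overlapped, and the means, 1.23 ± 0.015 and 1.21 ± 0.023 (SD, n = 2 each), had p = 0.67 in a two-sided exact permutation test. The word thus went with a higher peak in both genotypes, and a difference of that relation between genotypes was not detectable with these libraries.

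By the authors' mean log2 normalized reads of each genotype, which give no value per library, the regions with the core word had a median difference of -0.143 (Tcf4 cKO minus WT, log2), against -0.095 over all regions. Most of the regions with the word are promoters, so the closer comparison is within promoters, where the median difference was -0.145 for the 335 regions with the word and -0.110 for all 13909. Among the promoters with the word 84.5% had a value below 0, against 73.5% of all promoters. The class I word gave a median of -0.162 in promoters, the class II word -0.117, the class III word -0.128, the class IV word -0.097 and the SP word -0.118. After the median of all regions was set to 0, the regions with the core word had a median of -0.048. The part of accessibility in the footprint scores was not tested.

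Few regions with the core word changed by much. Past 0.5 on the log2 scale, 9 of the 376 regions were lower in Tcf4 cKO and 5 were higher, where 12.6% of all regions were lower and 8.38% higher. In promoters 4 of 335 were lower and none was higher, against 3.2% lower and 1.98% higher over all promoters. Outside promoters 5 of 41 were lower and 5 higher, against 19.8% lower and 13.3% higher. Of the 31 regions that also held an E-box CAGCTG within 75 bp of the centre 4 were lower and 1 higher, and of the 345 without one 5 were lower and 4 higher. Of the 4101 regions with the E-box and without the core word, 25.1% were lower and 7.14% higher. The class IV word outside promoters had 8 of 25 regions lower and 1 higher, and the class III word 43 of 196 lower and 31 higher.

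The 3 largest losses lay at the sequences shown above for Gm26744, Bcas1 and Ndrg1. The region chr16:21854250-21855248, whose ETS word lay 8962 bp from the start of the long non-coding RNA gene Gm26744, had mean log2 reads of 7.02 in WT and 5.83 in Tcf4 cKO, a difference of -1.20. Its peak fold enrichment was 7.22 and 7.97 in WT and 4.88 and 4.66 in Tcf4 cKO, so the libraries of the genotypes did not overlap. The next region was annotated by the authors as the promoter of Bcas1, a gene of newly formed oligodendrocytes. The GENCODE start site nearest its word was that of another gene, Bcas1os1, 1386 bp away. The region had 8.56 in WT and 7.44 in Tcf4 cKO, a difference of -1.12. Its peaks were 5.77 and 4.87 in WT and 4.04 and 3.97 in Tcf4 cKO. Both of these regions, which hold an E-box beside the ETS word, had a Tcf4 peak in both Tcf4-tag libraries. So did 55.6% of the 376 regions with the core word. The third, an intergenic region assigned to Ndrg1, a stress-induced gene of myelinating cells, lay at -69544 bp from that gene's start site. Its word stood 514 bp from the start site of another gene, Gm31342. This region had 6.37 in WT and 5.44 in Tcf4 cKO, a difference of -0.93. Its peaks were 7.64 and 8.93 in WT and 7.59 and 5.83 in Tcf4 cKO, which did not overlap but came close. It held no Tcf4 peak in either library.

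The 3 largest gains that had a peak in both Tcf4 cKO libraries lay near Sall1, 1700034B16Rik and ENSMUSG00000077976. The region chr8:89072816-89073644, whose word lay 29130 bp from the start of Sall1, a zinc-finger transcription factor gene, had 5.52 in WT and 6.54 in Tcf4 cKO, a difference of 1.019 on the log2 scale. Its peaks were 5.42 and 8.09 in WT and 8.72 and 7.01 in Tcf4 cKO, so the libraries overlapped. H3K27ac peaks stood there in Tcf4 cKO replicates 1 and 2 and not in WT. The regions near 1700034B16Rik and ENSMUSG00000077976 had differences of 0.74 and 0.60.

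The most accessible promoters with the word differed little. Ankhd1, Ube2n and Ddx50 had mean log2 reads of 10.6, 10.0 and 10.0 in WT and differences of -0.26, -0.20 and -0.17. At Ube2n, a ubiquitin-conjugating enzyme gene, the word stood 24 bp from the start site and the peaks were 8.66 and 8.21 in WT and 8.68 and 8.19 in Tcf4 cKO. At Ddx50, an RNA helicase gene, it stood 6 bp from the start site and the peaks were 10.7 and 10.7 in WT and 10.5 and 11.1 in Tcf4 cKO. In both the groups overlapped.

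Of the histone marks at the 376 regions, H3K4me1 was found at more regions in Tcf4 cKO and H3K27me3 at fewer. H3K4me1 peaks, a mark of enhancers and promoter flanks, covered 45.2% and 62.0% of the regions with the core word in WT and 73.1% and 74.7% in Tcf4 cKO, a difference of 20.3 points (p = 0.33, two-sided exact permutation test). Over all regions they covered 56.1% and 67.5% in WT and 74.7% and 72.8% in Tcf4 cKO, a difference of 11.99 points. Within promoters the difference was 21.9 points for those with the word and 17.7 points for all. H3K4me1 peak numbers moved the same way, with 51507 and 59523 in WT and 72788 and 65047 in Tcf4 cKO, and their part in the result was not tested. H3K27ac, a mark of active promoters and enhancers, covered 90.2% and 86.2% of the regions with the word in WT and 89.1% and 83.5% in Tcf4 cKO, and the groups overlapped. Within promoters it covered 87.5% to 93.1% of those with the word and 75.2% to 85.3% of all promoters.

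H3K27me3, the Polycomb mark of silenced genes, covered 10.4% and 15.4% of the regions with the core word in WT and 8.24% and 7.18% in Tcf4 cKO. Both Tcf4 cKO libraries were below both WT libraries, and the difference was -5.19 points (p = 0.33, two-sided exact permutation test). Over all regions the groups overlapped, with 15.3% and 18.5% in WT and 16.2% and 15.2% in Tcf4 cKO. Promoters with the word had 10.4% and 15.8% in WT and 8.06% and 6.87% in Tcf4 cKO. Over all promoters the shares were higher, 24.2% and 29.3% in WT and 25.4% and 24.7% in Tcf4 cKO, and the groups overlapped. When weaker peaks, under 5 in -log10 q, were left out, the difference at the regions with the word was -0.665 points.

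Tcf4 peaks were found at 84.6% and 57.2% of the regions with the core word in Tcf4-tag replicates 1 and 2, against 62.1% and 39.2% of all regions. Within promoters the shares were 88.1% and 61.2% with the word and 80.6% and 56.1% in all. At the Tcf4 peaks themselves the core word lay within 75 bp of 0.730% of the first 20000 summits by q-value in replicate 1. In replicate 2 it lay at 0.784% of all 16829, and the lists differ in how deep they reach. At ATAC-seq summits it lay at 3.57% and 3.56% in WT and 3.37% and 3.26% in Tcf4 cKO. The class III word, of the same length, lay at 0.770% and 0.755% of Tcf4 summits. The E-box word lay at 14.1% and 15.4%, but it is shorter, so its shares are not on a like scale. The replicates had 28602 and 16829 peaks.

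The genes of the ETS family were followed at their own promoters and regions. Of the 26 genes, 21, 21, 21 and 20 had an ATAC-seq peak within 1 kb of a start site in WT 1, WT 2, Tcf4 cKO 1 and Tcf4 cKO 2. Fev, Ehf, Spib and Spdef had none in any library, and Spic had 1 in Tcf4 cKO replicate 1 alone. Among the 22 genes with a peak in at least 1 library, both Tcf4 cKO libraries lay below both WT libraries at 3 (Spi1, Elk1 and Erf) and above them at 2 (Etv3 and Elf5), where 31.3% of 14996 protein-coding genes with a peak were below and 9.87% above. The summed fold enrichment over the 26 promoters was 156.2 and 156.0 in WT and 151.2 and 153.4 in Tcf4 cKO.

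Elk1, an ERK target that joins SRF, had promoter folds of 11.86 and 11.96 in WT and 9.76 and 8.88 in Tcf4 cKO. Erf, a repressor inactivated by ERK, had folds of 3.05 and 2.79 in WT and 2.71 and 2.58 in Tcf4 cKO. Etv3, also a repressor, had 8.58 and 8.71 in WT and 9.17 and 10.6 in Tcf4 cKO. Gabpa, whose product forms the GA-binding protein with Gabpb1 or Gabpb2, had 9.14 and 8.14 in WT and 7.44 and 8.49 in Tcf4 cKO, and the groups overlapped. Ets1 had 9.84 and 9.23 in WT and 8.66 and 9.33 in Tcf4 cKO, and these overlapped too. The PEA3 genes also overlapped: Etv1 had 5.23 and 4.71 in WT and 5.12 and 5.66 in Tcf4 cKO, Etv4 6.78 and 7.52 against 6.85 and 6.80, and Etv5 7.58 and 7.03 against 7.75 and 6.43. Erg had 9.76 and 10.04 in WT and 8.02 and 10.8 in Tcf4 cKO, and Fli1 5.13 and 5.97 against 5.43 and 5.48. The plot of promoter folds shows the 26 genes.

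**Figure D5:**
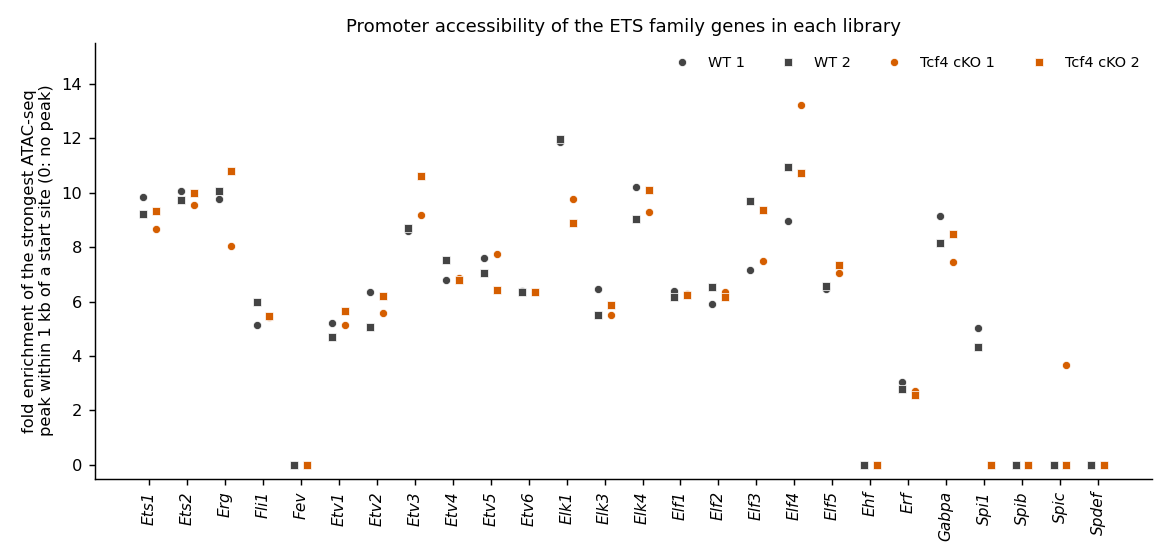
Fold enrichment over local background of the strongest ATAC-seq peak within 1 kb of a start site, for the 26 ETS family genes in each library, with 0 where a library has no peak. Elk1 and Spi1 are lower in both Tcf4 cKO libraries than in both WT libraries, and most genes overlap between genotypes.

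Spi1, the gene of the microglial factor PU.1, had a promoter peak of 5.03 fold in WT replicate 1 and of 4.34 fold in replicate 2, and none in Tcf4 cKO. Fewer markers of microglia had a promoter peak in Tcf4 cKO. Of the 8 microglial markers, Spi1 included, 6 and 6 had a promoter peak in WT and 4 and 3 in Tcf4 cKO, and their summed fold enrichment was 35.4 and 40.1 in WT and 26.3 and 19.7 in Tcf4 cKO. Aif1 had none in any library, Csf1r had one in WT replicate 1 alone, and Ptprc one in WT replicate 2 alone. At 31.3% of 14996 protein-coding genes with a promoter peak, both Tcf4 cKO libraries lay below both WT libraries. Summed folds were also lower in both for the ETS genes and for the interneuron, ERK response and mitochondrial genes below, and overlapped for the other marker lists. Of the 9 regions assigned to the microglial markers, 8 of them outside promoters, 5 were lower past 0.5 and none was higher, against 19.8% lower and 13.3% higher of all regions outside promoters. The cells had been sorted for the reporter of the Nkx2.1 lineage, to which microglia do not belong, and their part in the SPI1 footprints was not tested. The 2 regions assigned to Spi1 itself, the second of them 4636 bp from its start, had differences of -0.16 and 0.12 on the log2 scale.

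Endothelial markers, among them Erg and Fli1, did not separate the genotypes: their summed fold was 36.03 and 37.6 in WT and 32.5 and 36.2 in Tcf4 cKO, and 5 of 8 had a promoter peak in each library, while Pecam1, Cdh5 and Tek had none. The summed folds of markers overlapped between genotypes for oligodendrocyte lineage cells, at 26.1 to 29.1 in WT and 25.7 to 28.5 in Tcf4 cKO, and for astrocytes, at 31.2 to 38.4 and 32.2 to 35.6. Those of interneurons, the cells that the lineage is known for, were 32.6 and 29.0 in WT and 25.01 and 25.7 in Tcf4 cKO. Of the 8 interneuron markers Gad1, Lhx6, Dlx2 and Erbb4 had a promoter peak in all 4 libraries, Gad2, Dlx1 and Slc32a1 had one in both WT libraries and in 1 of the 2 Tcf4 cKO libraries, and Sst had one in Tcf4 cKO replicate 1 alone. Of the regions assigned to the markers, past 0.5, 11 of 29 astrocyte regions were higher and 4 lower, 5 of 20 oligodendrocyte lineage regions were lower and 1 higher, 6 of 13 interneuron regions were lower and 1 higher, and 1 of 18 endothelial regions was lower and 4 higher, where 12.6% of all regions were lower and 8.38% higher. Most regions of each list lay outside promoters, where 19.8% of all regions were lower and 13.3% higher. Peaks at markers of several cell types were thus present in both genotypes, and the part of cell types in the footprints was not tested.

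Among the 66 regions assigned to the 26 ETS genes, 11 were lower in Tcf4 cKO past 0.5 and 7 were higher, beside the 12.6% and 8.38% of all regions given above. Most of the 66 lay outside promoters, where 19.8% of all regions were lower and 13.3% higher. The median difference of the 66 was -0.142, against -0.095 over all regions. None of the 66 held the core word within 75 bp of its centre, and 2 promoter regions, of Gabpa and Elk4, held it elsewhere, as did an intergenic region assigned to Etv5. The 19 promoter regions had a median difference of -0.162, and the changes past 0.5 lay outside them.

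Etv6 carried 3 of the lower regions and 1 of the higher. The region chr6:134051780-134052519 in an intron of Etv6 had mean log2 reads of 5.56 in WT and 6.84 in Tcf4 cKO, a difference of 1.28, with peaks of 4.17 and 6.19 in WT and 7.11 and 6.54 in Tcf4 cKO. The intronic regions chr6:134072531-134073219, chr6:134211450-134212321 and chr6:134258518-134259196 had differences of -1.01, -0.76 and -0.71. Elf2 had the lowest value of the family: the intronic region chr3:51260191-51260915 had 6.01 in WT and 3.92 in Tcf4 cKO, a difference of -2.08, with peaks of 8.75 and 9.23 in WT, none in Tcf4 cKO replicate 1 and 4.95 in replicate 2. An H3K4me1 peak stood there in WT replicates 1 and 2 and was missing in Tcf4 cKO. A second region assigned to Elf2, in intergenic sequence, had a difference of -0.81.

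The ERK-responsive genes of the PEA3 group had regions that differed in both directions. Of the regions assigned to Etv1, chr12:38508036-38508680 (1.19) and chr12:38788498-38788999 (0.55) were higher and chr12:38596226-38597051 (-0.55) was lower, all annotated as intronic. The first and the last lay -270700 and -182329 bp from its start site and were assigned to it only as the nearest start. The promoter region of Etv1 had -0.12. At the lower one the peak folds, 10.49 and 10.2 in WT and 10.98 and 11.5 in Tcf4 cKO, went the other way. Etv5 had a higher region at chr16:22468279-22469118 (0.68), -28560 bp from its start site and annotated in a 3′ UTR, and its promoter region had -0.22. No region of Etv4 passed 0.5, and its promoter region had -0.042.

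The other ETS genes with a region past 0.5 were Ets1, Ets2, Erg, Elk3, Gabpa and Spdef. Ets1 had an intronic region, chr9:32646829-32647598, with 6.85 in WT and 5.83 in Tcf4 cKO, a difference of -1.02. Ets2 had one at chr16:95708160-95708971 with a difference of -1.16, where the peak was 5.80 and 5.70 in WT, 3.45 in Tcf4 cKO replicate 1 and absent in replicate 2. Erg had an intronic region at chr16:95398803-95399527 with -0.58 and an intergenic one at chr16:95596995-95598262 with 0.84. Elk3 had an intronic one at chr10:93275251-93276880 with 0.52, and Spdef an exonic one at chr17:27702222-27702988 with 0.60. The 2 regions given to Gabpa, chr16:84971517-84972597 and chr16:84987359-84988304, with -0.86 and -0.76, lay 111472 and 127314 bp from its start site and were assigned to it only as the nearest start. The promoter regions of Gabpa, Ets1, Erg and Fli1 had -0.14, -0.078, -0.40 and -0.19.

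Genes linked to ETS factors were taken as 2 lists. The first holds genes that ERK signalling induces in part through ETS factors. The second holds nuclear genes of mitochondria with known GABPA sites or of the same kind, and the GABPA partners Gabpb1 and Gabpb2. Of the 12 ERK response genes, such as the feedback inhibitors Spry2, Dusp6 and Spred1, all had a promoter peak in all 4 libraries. Of the 31 regions assigned to 11 of them, 4 were lower past 0.5 and none was higher, against 12.6% and 8.38% of all regions, so the share that was lower is near the background. The median difference was -0.150, and no region had the core word near its centre. The 4 were 2 regions of Fos, the immediate early gene, with -1.32 and -0.63, and 1 each of Il17rd (-0.67) and Dusp4 (-0.65), and none was a promoter.

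Of the 15 nuclear genes of mitochondrial proteins and GABPA partners, all had a promoter peak in all 4 libraries, with a summed fold of 158.6 and 154.2 in WT and 148.5 and 148.8 in Tcf4 cKO. Of their 16 regions, 1 was lower past 0.5, an intronic region of Cox4i1 with -1.19, and none was higher. None of the 14 promoter regions was past 0.5, where 3.2% of all promoters were lower and 1.98% higher, so this count is near the background. The median difference of the 14 promoter regions was -0.146, against -0.145 for promoters with the core word and -0.110 for all promoters. Only 3 of the 14 held the word anywhere. The promoter regions of the ERK response genes, none with the word, had a median of -0.162. The promoter region of Tfam, the mitochondrial transcription factor, was the only one with the word near its centre, in the sequence shown above. It had mean log2 reads of 8.67 in WT and 8.60 in Tcf4 cKO, a difference of -0.068, and peaks of 12.6 and 13.0 in WT and 12.6 and 12.5 in Tcf4 cKO, which overlapped. The promoter regions of Cox5b and Gabpb2 held the word away from the centre, with differences of -0.18 and -0.097.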

How the data were processed

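The authors trimmed reads with Trim Galore, aligned them to mm10 with Bowtie 2, removed duplicates with Samtools and ran MACS2 on every library separately. Each peak in the authors' lists carries a fold enrichment over local background (a ratio) and its p-value and q-value as -log10. The authors merged the alignments of a genotype and ran TOBIAS with JASPAR motifs, and their deposited table gives for 1205 motifs a mean footprint score per genotype, the number of sites and of sites called bound. The authors' consensus regions, from DiffBind and DESeq2, carry log2 normalized reads averaged over the libraries of a genotype. Changes, folds, p-values and FDRs of the authors' own comparisons in both tables were not used.

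Read numbers per library were not used here, so depth is known as peak numbers: 54159 and 72306 in the WT and 61650 and 58581 in the Tcf4 cKO ATAC-seq libraries. Log2 ratios of scores, differences of log2 reads, word searches in the RefSeq genome GRCm38.p6, start sites of GENCODE M21 and overlaps of at least 1 bp used scipy 1.17.1, pandas 2.3.3 and numpy 2.4.6 under Python 3.11.15, and figures matplotlib 3.10.9. Word searches, overlaps and ratios were tested on simulated data. Chromosomes other than 1 to 19, X and Y were left out. Libraries were compared with two-sided exact permutation tests. No filter on low values and no pseudocount was used. Replicate numbers came from the labels.

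Motifs were named by a rule: the 4 lowest and 4 highest log2 ratios, the 2 of most and of fewest sites, and ETS1, ETV5, GABPA, ELF1, SPI1 and SPDEF. Of ETS genes, those with a region past 0.5 and 8 others were named, and of regions with the core word the 3 largest falls, the 3 largest rises and the 3 most accessible promoters. The ELK3 motif, the ETV4 and ERG versions, Elk1, Erf, Etv3, Elk4, Tfam, Elf5 and the regions of the ERK response and mitochondrial genes were named after their values were seen. Members and gene lists were chosen with earlier results of these data known. No sequence of chromosome 18 is printed.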

Additional observations from a re-analysis of the deposited data

How the results depend on the processing

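No paired analysis was possible because the footprint scores and log2 reads exist only as 1 value per genotype, and a replicate number names no shared animal or batch. The median log2 ratio of the ETS footprint scores was -0.040 and became -0.013 with the share of bound sites in place of the score; with 1 motif per cluster it was -0.032 over 26 clusters, all lower, and 18 past the margin of 2%, after centring on all motifs 77 of 78 stayed below 0, and for motifs of a factor alone, added after seeing the data, it was -0.043. The count lower was 0 at the margin of 5% and 57 at 2%. The difference in summits with the core word, -0.250 points, was -0.158 with a window of 25 bp, -0.150 with 150 bp, -0.390 with 10000 peaks, -0.052 with all peaks and -0.091 without promoters, and ran from -0.305 to -0.195 without single libraries. The median difference of regions with the word, -0.143, was -0.048 after centring on the median of all regions, and in promoters -0.145 became -0.050. The share lower past 0.5, 2.39%, was 1.38% above the lower quartile of reads, 0.532% past 1 and 1.06% after centring; the share higher, 1.33%, was 0.698% with a window of 150 bp, 0.826% above the lower quartile and 0.266% past 1. With the word anywhere in the region ATAC-seq peaks differed by -0.283 points. H3K4me1 differed by 11.97 to 28.7 points without single libraries and H3K27me3 by -7.71 to -2.66, and by -0.665 with peaks of -log10 q of at least 5. The H3K27ac difference of -1.86 points changed sign without WT replicate 1 (0.133) or Tcf4 cKO replicate 2 (0.931) and ran from -4.65 to 0.931. Tcf4 covered 50.4% of the regions at that q and 43.4% with an overlap of 50%, against 70.9%, and 57.2 to 84.6% in single libraries. ETS gene regions numbered 18 lower and 11 higher within 100 kb, and 4 and 2 past 1. In all, 52 values, some of them given here, kept their direction and moved by at most the spread between libraries or, for counts and values without libraries, by at most 1.5 times. A further 23 values moved by more than that, and 2 changed sign. Without read counts per library and with 1 merged alignment per genotype, footprint differences of a few percent have no replicate check.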
